A study of Homo sapiens with 9 samples.

Results

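The genes for the subunits of the 5 complexes of oxidative phosphorylation were followed in macrophages near to tumour cells, away from them, or grown alone. They were chosen by name: the NDUFA, NDUFB, NDUFC, NDUFS and NDUFV genes of complex I, the SDH genes of complex II and the UQCR genes of complex III. To these were added the COX4 to COX8 genes of complex IV, the ATP5 genes of complex V, and the protein-coding genes of the mitochondrial genome. Of 61180 gene names in the count tables, 93 were members, 80 of them nuclear and 13 mitochondrial. All 13 mitochondrial members and 71 nuclear ones had counts high enough to be tested, 84 in all. The other 9 were NDUFS1, NDUFA3, NDUFA7, COX4I2, COX6A2, COX6B2, COX7A1, COX7B2 and COX8C.

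Complexes I to IV pass electrons from NADH and succinate to oxygen in the inner mitochondrial membrane, and complexes I, III and IV pump protons as they do so. Complex V, the ATP synthase, makes ATP from the proton gradient. Most subunits are encoded in the nucleus and imported, whereas a few core subunits of complexes I, III, IV and V are encoded by mitochondrial DNA, so each of these complexes needs the products of both genomes. Complex II, which is also the succinate dehydrogenase of the tricarboxylic acid cycle, is encoded by the nucleus alone. In macrophages, the use of this pathway is known to differ between inflammatory activation, in which cells rely more on glycolysis, and alternative activation.

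The macrophages came from THP-1, an established human monocytic leukaemia cell line, differentiated with the phorbol ester PMA (250 nM, 48 h), and all groups carried the wild-type genotype label. For the coculture, HER2-positive MDA-MB-231 cells, a breast cancer line, were added for 24 h, with 20 macrophages per tumour cell by the series design and 40 by the growth protocol. A HER2-binding protein fused to a galactosidase then activated a biotin probe near the tumour cells, and cells were sorted by the strength of that label into proximal (strong) and distal (weak) macrophages. Monocultured macrophages were the controls, and there were 3 libraries of each group. The sources used here do not say whether the control cells were labelled and sorted too. Each table of counts has a letter for its group, and H was taken to mean high labelling, L low labelling and M monoculture. No label spells this key out, and every sign of proximal against distal below rests on it. Nothing in the labels says that the 3 libraries of a group came from separate cultures, so p-values measure the spread between these libraries, which may be technical.

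The libraries held 13581994 to 16447199 counted read pairs. In what follows, CPM is the count over the library total after TMM scaling, on the usual scale of counts per 1e+06 pairs. TPM is the same reads divided by exonic length, and is used wherever levels of different genes are set side by side. Values are means ± SD of 3 libraries unless each library is given in the order of its replicate number. Fold changes are log2 values ± SE from edgeR's quasi-likelihood fit, and a gene was called higher or lower where the Benjamini-Hochberg adjusted p over all 15427 genes tested was under 0.05. Markers of the cell types were checked in every library: the summed CPM of 14 macrophage markers was 3708 to 3982 in proximal, 2971 to 3337 in distal and 4496 to 4832 in monocultured libraries. None of the 14 was at 0 in all 9 libraries. Of 18 epithelial and tumour cell markers, KRT18 and EPCAM had no count anywhere, and the sum was 240.2 to 264 CPM in proximal, 212 to 224 in distal and 70.2 to 74.2 in monocultured libraries. ERBB2, the gene of HER2, had a mean of 39.8 CPM in distal and of 17.3 CPM in proximal macrophages, against 1.52 CPM in monocultured ones. Markers of undifferentiated THP-1 cells (10 genes, PRTN3 at 0) summed to 28.0 to 46.3 CPM in proximal, 123 to 138 in distal and 215 to 251 in monocultured libraries. In the same order, 15 proliferation genes, none at 0, summed to 205 to 251, 415 to 455 and 382 to 403. The part of these cells and states in the results below was not tested.

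Some libraries stood apart from the others of their group in the subunit genes. Proximal replicate 3 was above both other proximal libraries for 46 of 71 nuclear members (64.8%, beside 39.1% of all genes). It was below both for 12 of 13 mitochondrial ones (92.3%, beside 42.3%). The median log2 differences were 0.16 over nuclear and -0.37 over mitochondrial members. Distal replicate 2 was below both other distal libraries for 37 of 71 nuclear members (52.1%, beside 40.3% of all genes) and above both for 17. The median log2 difference of the nuclear members was small (-0.05). It was above both for 12 of 13 mitochondrial members (92.3%, beside 40.0%), with a median of 0.26. Monocultured replicate 2 was below both others of its group for 44 of 71 nuclear members (62.0%, beside 30.3% of all genes). Over all genes tested, the difference in log2 level of proximal replicate 3 from the other proximal libraries went with GC content (Spearman's rho of 0.63 across genes, which are not independent), and that of distal replicate 2 went against it (-0.60).

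**Figure D1:**
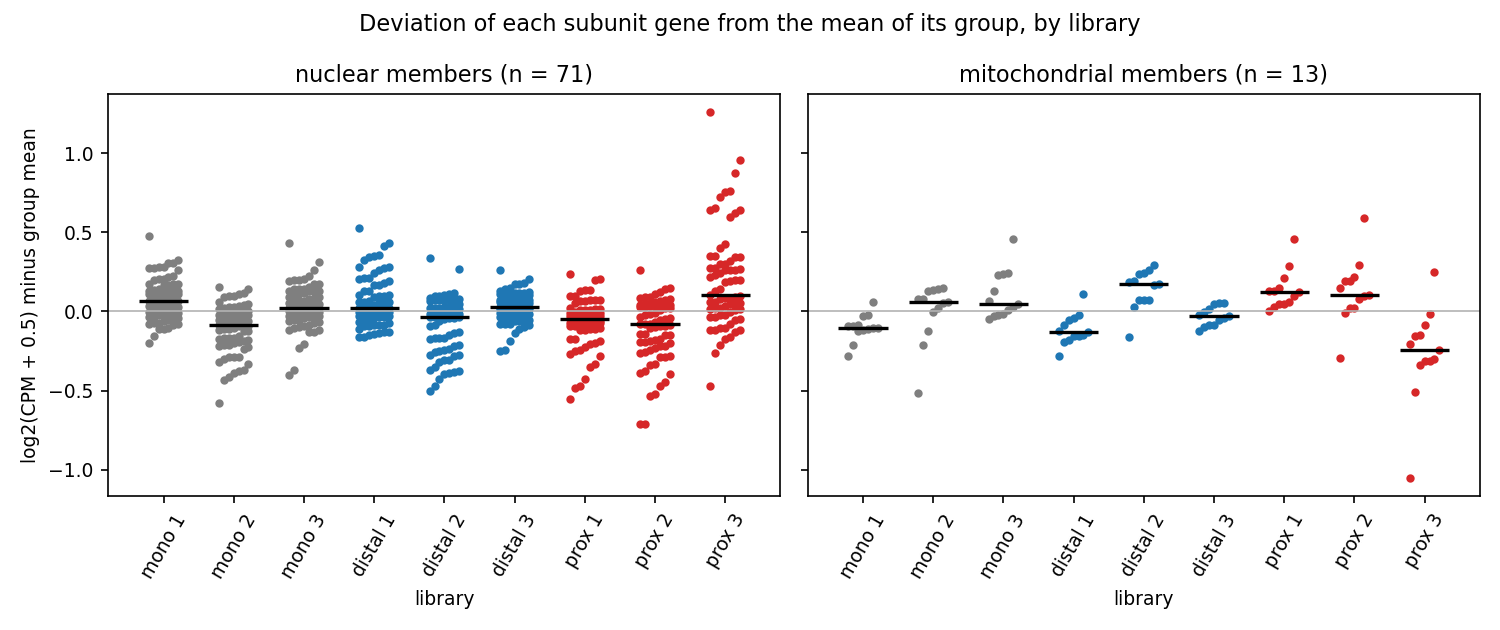
Deviation of each tested subunit gene from the mean of its group in each of the 9 libraries, on the log2 scale with a pseudocount of 0.5 CPM, for nuclear and mitochondrial members. The medians of nuclear and mitochondrial members deviate in opposite directions in every library but monocultured replicate 3. The mitochondrial median deviates most in proximal replicate 3 (-0.24, nuclear up) and in distal replicate 2 (0.17, nuclear slightly down).

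Most tested nuclear subunit genes fell in cocultured macrophages of both sorts against monocultured ones. Of the 13 mitochondrially encoded genes, 3 rose in each sort (23.1%), a share near that of all genes called higher (22.4% in proximal and 20.7% in distal macrophages), and 0 and 1 fell. The summed level of the nuclear members was 6839 ± 339 CPM in monocultured, 4893 ± 375 in proximal and 4791 ± 134 in distal macrophages (SD, n = 3). That of the 13 mitochondrial members was 32202 ± 2161, 35668 ± 4697 and 34339 ± 4198 CPM. In proximal macrophages, 44 of the 71 tested nuclear members (62.0%) fell against monocultured ones, where 23.1% of all genes tested were lower, and 1 rose, where 22.4% of all genes were higher. In distal macrophages, 48 of 71 (67.6%) fell, beside 21.7% of all genes, and 1 rose, beside 20.7%. The median log2 fold change of the nuclear members was -0.48 for proximal and -0.47 for distal macrophages, or 1.40-fold and 1.38-fold lower, beside medians of 0.00 and 0.01 over all genes. A log2 fold change below 0 was found for 67 of 71 nuclear members (94.4%) in each of these comparisons, which share their control libraries, beside 49.9% and 49.4% of all genes. The falls were mostly small: 4 nuclear members were at least 2-fold lower in proximal macrophages (COX5B, NDUFA1, NDUFB6 and ATP5MC3), beside 10.3% of all genes, and 2 in distal ones (COX5B and NDUFB6), beside 7.51%. The 3 replicates of each group did not overlap, with the cocultured ones lower, for 43 of 71 nuclear members in proximal (beside 26.9% of all genes) and for 55 of 71 in distal macrophages (beside 27.2%). In bulk RNA, fewer cells with a transcript and less of it per cell cannot be told apart. The call was kept without any 1 of the 9 libraries by 30 of the 44 lower in proximal and by 32 of the 48 lower in distal macrophages.

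**Figure D2:**
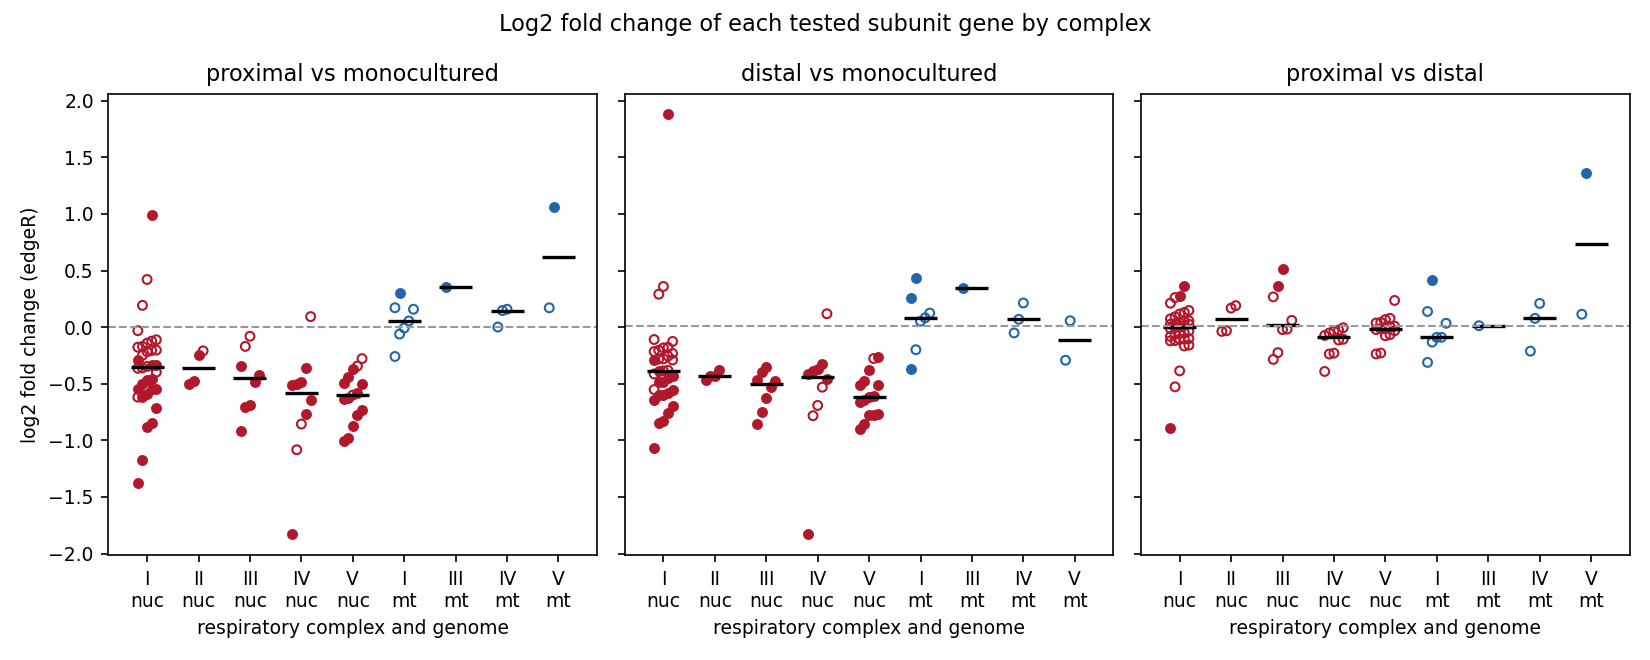
Log2 fold change of each tested subunit gene in the 3 comparisons, by complex and genome (red, nuclear; blue, mitochondrial), with filled points called at an adjusted p under 0.05, open points not called, and bars at the median of each set. Against monocultured macrophages the nuclear medians of all 5 complexes lie below 0 and most blue points lie above it, whereas in proximal against distal macrophages both sets centre near 0.

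Some members could not be counted fully, since pairs that overlapped the exons of more than one gene were left out and strand was not used. In 20 of the 80 nuclear members, under 50% of the exonic or of the coding bases were free of other genes' exons or the gene name was annotated on several sequences. They include SDHA, NDUFV2, UQCR11, COX6A1, COX8A, NDUFA9, UQCR10, ATP5MG, ATP5ME and ATP5PO, whose values are uncertain for that reason. Pairs that map to several places were left out too, which also lowers counts of genes with close processed pseudogenes. The other 56 tested nuclear members were within these limits, though they may still share some bases with other genes. Of them, 37 fell and 0 rose in proximal and 42 fell and 0 rose in distal macrophages against monocultured ones. Of all genes, 23.1% fell and 22.4% rose in proximal and 21.7% fell and 20.7% rose in distal macrophages. Of the overlapped members, ATP5MG fell by 0.98 ± 0.16 on the log2 scale in proximal (adjusted p = 0.0002) and by 0.90 ± 0.16 in distal macrophages (adjusted p = 0.000424). UQCR10 fell by 0.69 ± 0.24 (adjusted p = 0.0300) and by 0.75 ± 0.24 (adjusted p = 0.0215), calls that were lost without proximal replicate 1 or 2 and without distal replicate 2 or 3, and both without monocultured replicate 1 or 3 (0.0506 to 0.112). ATP5ME fell by 0.88 ± 0.30 (adjusted p = 0.0285) and by 0.85 ± 0.30 (adjusted p = 0.0331), calls that were lost without proximal replicate 1 or 2 and without distal replicate 1 or 2, and both without monocultured replicate 1 or 3 (0.0635 to 0.169). ATP5PO, the tested nuclear complex V member with the lowest level per length (20.6 ± 2.16 TPM in monocultured macrophages), fell by 0.37 ± 0.13 (adjusted p = 0.0335) and by 0.38 ± 0.13 (adjusted p = 0.0316). These calls were lost without any 1 proximal replicate and without distal replicate 2 or 3, and both without monocultured replicate 2 or 3 (0.0534 to 0.153). NDUFA9, the lowest tested nuclear member of complex I per length at 1.02 ± 0.252 TPM, was not called (0.19 ± 0.30 and 0.36 ± 0.29, adjusted p = 0.626 and 0.345).

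Promoters of respiratory chain genes are known for binding sites of the factor NRF1 and of ETS factors such as GABP, and these were searched in the 250 bases before the RefSeq start of 65 of the 80 nuclear members that matched the table (GRCh38.p14). The NRF1 motif searched was GCGCA, any base (N) and GCGC in a row, and the ETS motif was CCGGAAG, each on both strands. Matches of both can share at most 1 end base. The NRF1 motif was found in 14 promoters (21.5%), beside 5.07% of 35116 promoters of the same length, and the ETS motif in 16 (24.6%), beside 8.52%. Either was found in 28 (43.1%), beside 12.8% of all promoters. The 35116 promoters were not limited to genes tested here, nor to 1 window per gene as the members were. Among members with a promoter, 15 of the 35 that fell in proximal macrophages held either motif (42.9%), as did 10 of the 22 that were not called (45.5%). For distal macrophages the numbers were 17 of 37 (45.9%) and 8 of 20 (40%). A match describes these letters only and is not a measured site. The windows of 4 genes that the results turn on are printed 5′ to 3′ on the strand of the gene, with matches on either strand in capitals. COX5B is shown as the nuclear member with the largest fall (chr2:97645812-97646061, plus strand), and COX4I1 as a subunit of the same complex that was not called (chr16:85799445-85799694, plus strand). SDHD is shown since it fell and holds both motifs (chr11:112086623-112086872, plus strand), and UQCRC1 since it differed between proximal and distal macrophages (chr3:48609647-48609896, minus strand). The RefSeq starts of COX4I1, SDHD and UQCRC1 lie inside the gene spans of the annotation used for the coordinates given with the values.
COX5B: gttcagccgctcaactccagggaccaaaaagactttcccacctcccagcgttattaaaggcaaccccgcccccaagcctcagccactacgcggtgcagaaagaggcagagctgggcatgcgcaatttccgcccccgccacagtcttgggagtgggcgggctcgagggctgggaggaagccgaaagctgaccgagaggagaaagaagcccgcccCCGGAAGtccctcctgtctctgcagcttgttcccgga
COX4I1: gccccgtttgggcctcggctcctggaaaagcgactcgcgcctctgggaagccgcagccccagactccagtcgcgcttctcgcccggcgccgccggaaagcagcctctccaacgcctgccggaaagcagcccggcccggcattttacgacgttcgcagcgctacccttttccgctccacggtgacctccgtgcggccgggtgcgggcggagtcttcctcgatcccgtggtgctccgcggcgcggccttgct
SDHD: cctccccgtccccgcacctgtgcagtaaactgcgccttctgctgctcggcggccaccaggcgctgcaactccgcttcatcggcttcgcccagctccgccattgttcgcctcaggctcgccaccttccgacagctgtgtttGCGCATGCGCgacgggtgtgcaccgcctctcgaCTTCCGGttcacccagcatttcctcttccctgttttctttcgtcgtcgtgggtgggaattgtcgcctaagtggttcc
UQCRC1: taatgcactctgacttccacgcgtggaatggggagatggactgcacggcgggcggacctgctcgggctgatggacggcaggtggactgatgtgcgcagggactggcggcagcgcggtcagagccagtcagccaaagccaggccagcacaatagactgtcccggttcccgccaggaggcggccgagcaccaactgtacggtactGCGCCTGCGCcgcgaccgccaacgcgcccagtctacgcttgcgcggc

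In complex I, the NADH dehydrogenase, 16 of 34 tested nuclear members fell in proximal macrophages and 16 of 34 in distal ones, with medians of -0.35 and -0.39 on the log2 scale. Beside these counts, and those of the other complexes below, 23.1% of all genes were lower in proximal and 21.7% in distal macrophages. NDUFB6, an accessory subunit of the membrane arm (chromosome 9, 32553001 to 32573184, minus strand), stood at 27.7, 28.7 and 31.3 CPM in the monocultured libraries, at 12.7, 11.3 and 14.9 in proximal and at 12.5, 14.8 and 14.5 in distal ones. All 6 cocultured libraries lay below all 3 monocultured ones. The log2 fold change was -1.17 ± 0.13 (adjusted p = 4.67e-06) in proximal and -1.07 ± 0.13 (adjusted p = 1.26e-05) in distal macrophages, or 2.26-fold and 2.10-fold lower. NDUFS3, a core subunit of the peripheral arm, was at 48.3, 40.9 and 43.5 CPM in monocultured, 21.6, 24.0 and 28.2 in proximal and 24.6, 26.6 and 23.5 in distal libraries. The cocultured and monocultured libraries did not overlap, and NDUFS3 fell by 0.84 ± 0.12 (adjusted p = 4.85e-05) and by 0.83 ± 0.12 (adjusted p = 6.21e-05) on the log2 scale. NDUFB3, of the membrane arm, fell by 0.88 ± 0.15 and by 0.76 ± 0.15 on the same scale (adjusted p = 0.000344 and 0.00119). NDUFA1, a small accessory subunit encoded on the X chromosome, was at 33.5, 23.8 and 37.2 CPM in monocultured, 7.93, 7.84 and 20.3 in proximal and 20.7, 13.03 and 18.7 in distal libraries. Proximal replicate 3 was well above the other proximal libraries, yet below every monocultured one. NDUFA1 fell by 1.38 ± 0.31 on the log2 scale in proximal macrophages (adjusted p = 0.003). Its fall of 0.85 ± 0.31 in distal ones (adjusted p = 0.0391) was not called without any 1 of the distal replicates, monocultured replicate 1 or monocultured replicate 3 (adjusted p from 0.0503 to 0.182).

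Further genes named for complex I, among them the core subunits NDUFV1 and NDUFV2, are given next. NDUFV1, which binds NADH, was 105 ± 14.5 CPM in monocultured, 76.6 ± 12.6 in proximal and 75.3 ± 13.2 in distal macrophages (log2 fold changes of -0.46 ± 0.14, adjusted p = 0.0191, and -0.48 ± 0.14, adjusted p = 0.0154). Neither call was stable. The first was lost without proximal replicate 1, proximal replicate 2 or monocultured replicate 1 (adjusted p from 0.0732 to 0.089). The second was lost without distal replicate 2, distal replicate 3 or monocultured replicate 1 (0.058 to 0.0696). NDUFV2 was the 1 nuclear member called higher in each comparison with monocultured macrophages, at 1.17 ± 0.144 CPM in monocultured, 2.34 ± 0.353 in proximal and 4.33 ± 0.168 in distal libraries. Only 15.3% of its coding bases are free of other genes' exons, so these low counts cannot be taken for its level. NDUFA4, named for complex I but known as a subunit of complex IV, was 106 ± 3.55 CPM in monocultured, 70.6 ± 3.53 in proximal and 72.4 ± 4.67 in distal macrophages. It fell by 0.59 ± 0.09 (adjusted p = 7.19e-05) and by 0.55 ± 0.09 (adjusted p = 0.000141) on the log2 scale. NDUFS5, the nuclear complex I member with the highest level per length (632 ± 59.3 TPM in monocultured macrophages), fell by 0.60 ± 0.09 in distal ones (adjusted p = 0.000133). Its fall of 0.34 ± 0.09 in proximal ones (adjusted p = 0.00843) was not called without monocultured replicate 3 (adjusted p = 0.0541). NDUFB4, an accessory subunit, was at 96.8 ± 5.66, 94.8 ± 3.11 and 85.6 ± 1.01 CPM in monocultured, proximal and distal macrophages and was not called in either comparison (adjusted p = 0.782 and 0.0946).

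**Figure D3:**
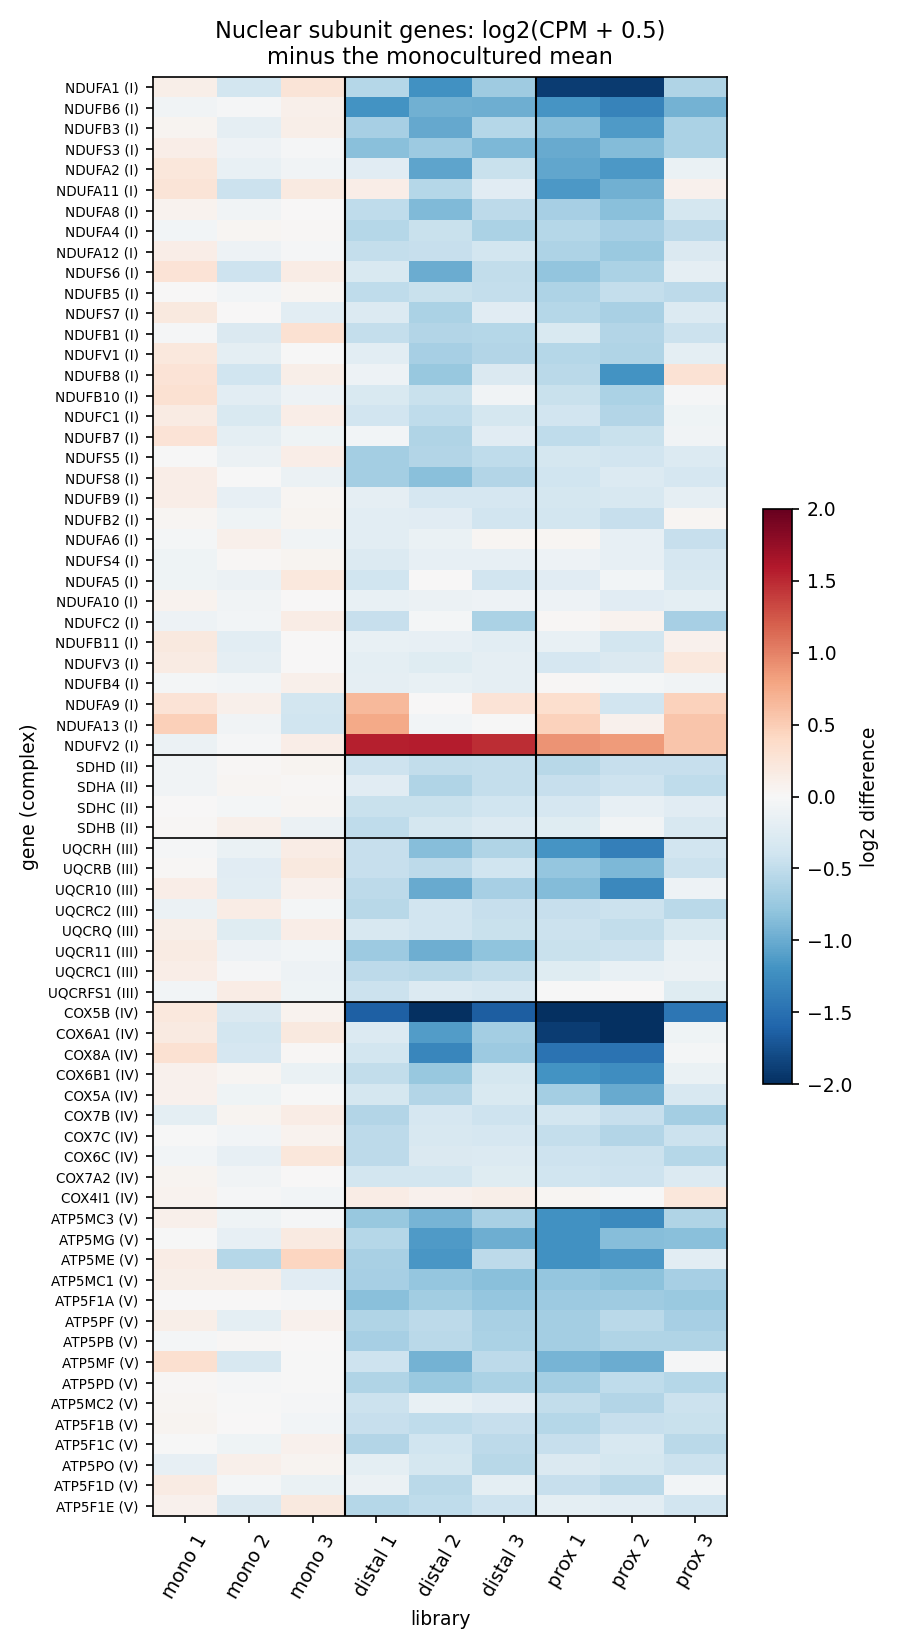
Tested nuclear members (70 rows, by complex) in the 9 libraries (columns), as log2(CPM + 0.5) minus the mean of the monocultured libraries, with colours that end at -2 and 2. The cocultured columns are below 0 (blue) for most rows, COX5B passes the end of the scale in some libraries, and proximal replicate 3 is paler than the other proximal libraries in many rows.

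All 4 genes of complex II were lower in distal macrophages by the test, and 3 of 4 in proximal ones. SDHD, an anchor in the membrane, was at 38.2, 41.1 and 41.7 CPM in monocultured, 27.2, 29.2 and 29.1 in proximal and 30.2, 28.4 and 28.8 in distal libraries. The cocultured libraries lay close together, all below the monocultured ones. SDHD fell by 0.50 ± 0.09 (adjusted p = 0.000652) and by 0.47 ± 0.09 (adjusted p = 0.00119) on the log2 scale, and its promoter, printed above, holds both motifs. SDHC, the other anchor, was at 77.1, 74.5 and 78.6 CPM in monocultured, 60.6, 68.1 and 65.8 in proximal and 56.0, 56.2 and 58.3 in distal libraries. Here too the groups did not overlap. The fall in distal macrophages was 0.43 ± 0.08 on the log2 scale (adjusted p = 0.00094). That in proximal ones was 0.24 ± 0.08 (adjusted p = 0.0303) and was lost without proximal replicate 1, distal replicate 1, distal replicate 3 or any 1 monocultured replicate (adjusted p from 0.0552 to 0.135). SDHA, the flavoprotein that oxidises succinate, fell by 0.47 ± 0.11 (adjusted p = 0.00373) and by 0.43 ± 0.11 (adjusted p = 0.0068), with the limit on its counts given above. SDHB, the iron-sulphur subunit, was 61.0 ± 4.56 CPM in monocultured, 52.8 ± 4.97 in proximal and 46.9 ± 3.99 in distal macrophages. It was called in distal ones (-0.38 ± 0.10, adjusted p = 0.0101; 0.061 without distal replicate 1 and 0.0531 without monocultured replicate 2) and not in proximal ones (-0.21 ± 0.10, adjusted p = 0.119).

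In complex III, the cytochrome bc1 complex, 6 of 8 nuclear members fell in proximal and 8 of 8 in distal macrophages, with medians of -0.45 and -0.50. UQCRC2, a core protein of the matrix side, was at 118 ± 11.5 CPM in monocultured, 84.6 ± 2.96 in proximal and 85.7 ± 4.93 in distal libraries, and fell by 0.48 ± 0.09 (adjusted p = 0.000669) and by 0.47 ± 0.09 (adjusted p = 0.000994) on the log2 scale. UQCRB, which lies near the quinone site, fell by 0.70 ± 0.13 (adjusted p = 0.000441) and by 0.48 ± 0.13 (adjusted p = 0.00753). UQCRH, the hinge protein beside cytochrome c1, was at 196, 182 and 218 CPM in monocultured, 87.2, 76.1 and 152 in proximal and 144, 110.0 and 131 in distal libraries. Every cocultured library was below every monocultured one, with proximal replicate 3 above both other proximal ones. UQCRH fell by 0.91 ± 0.20 in proximal macrophages (adjusted p = 0.00242). The fall of 0.63 ± 0.20 in distal ones (adjusted p = 0.023) was lost without distal replicate 2, distal replicate 3, monocultured replicate 1 or monocultured replicate 3 (adjusted p from 0.053 to 0.123). UQCRFS1, the Rieske iron-sulphur protein, was at 76.3 ± 6.88 CPM in monocultured, 72.2 ± 6.77 in proximal and 59.9 ± 3.44 in distal macrophages. It fell in distal ones (-0.35 ± 0.10, adjusted p = 0.0133; 0.067 without distal replicate 1 and 0.0785 without monocultured replicate 2) and was not called in proximal ones (-0.08 ± 0.10, adjusted p = 0.547).

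Complex IV, cytochrome c oxidase, held both the largest fall among the members and a subunit that was not called. COX5B, a structural subunit on the matrix side (chromosome 2, 97646062 to 97648383, plus strand), was at 271, 191 and 244 CPM in monocultured, 55.4, 57.3 and 85.6 in proximal and 74.8, 50.6 and 73.9 in distal libraries. The lowest monocultured library was more than 2 times as high as the highest cocultured one. COX5B fell by 1.83 ± 0.19 on the log2 scale in proximal macrophages (adjusted p = 2.66e-06) and by 1.82 ± 0.19 in distal ones (adjusted p = 3.28e-06), or 3.56-fold and 3.54-fold. By level per length it went from 609 ± 102 TPM to 166 ± 41.2 and 186 ± 38.9. COX4I1, the main isoform of the regulatory subunit IV, was at 199.6, 188 and 183 CPM in monocultured, 196, 189.9 and 223 in proximal and 211, 202 and 206 in distal libraries. Its distal values all lay above the monocultured ones, and the proximal values overlapped both. Its log2 fold changes were 0.09 ± 0.08 (adjusted p = 0.389) and 0.12 ± 0.08 (adjusted p = 0.276). Of 10 tested nuclear members of the complex, 7 fell in proximal and 6 in distal macrophages, with medians of -0.58 and -0.44. COX5A, another subunit of the matrix side, was at 119.5, 105 and 112 CPM in monocultured, 70.0, 55.8 and 89.5 in proximal and 87.4, 74.8 and 90.5 in distal libraries, with no overlap between cocultured and monocultured ones. It fell by 0.64 ± 0.14 in proximal macrophages (adjusted p = 0.00197), and its fall of 0.41 ± 0.14 in distal ones (adjusted p = 0.0287) was lost without distal replicate 1 or 2 or monocultured replicate 1 or 3 (0.0574 to 0.0994). COX7C, COX7A2 and COX7B, small subunits of the membrane part, were at 105 ± 4.65, 164 ± 7.34 and 64.2 ± 7.79 CPM in monocultured macrophages. They fell by 0.50 ± 0.09, 0.36 ± 0.08 and 0.51 ± 0.12 on the log2 scale in proximal ones (adjusted p = 0.000422, 0.00243 and 0.00277). In distal macrophages the falls of these 3 genes were 0.39 ± 0.09, 0.33 ± 0.08 and 0.46 ± 0.12 (adjusted p = 0.0029, 0.00533 and 0.00606).

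Other nuclear subunits of complex IV varied between replicates of a group. COX6A1 was at 32.2, 21.9 and 32.7 CPM in monocultured, 7.26, 6.45 and 26.8 in proximal and 23.4, 12.8 and 17.6 in distal libraries. Proximal replicates 1 and 2 were below all other libraries and replicate 3 was within the monocultured range, and the log2 fold change of -1.08 ± 0.45 was not called (adjusted p = 0.0716). COX6B1, which faces the intermembrane space, was at 40.3, 38.8 and 84.5 CPM in proximal libraries against 99.0, 95.4 and 84.8 in monocultured ones. Its call of -0.77 ± 0.23 (adjusted p = 0.017) was lost without proximal replicate 1, proximal replicate 2 or monocultured replicate 1 (adjusted p from 0.0638 to 0.0685). COX8A, at 568 ± 121 TPM in monocultured macrophages, was not called in either comparison (-0.86 ± 0.37, adjusted p = 0.0809, and -0.78 ± 0.37, adjusted p = 0.112). In all 3 genes proximal replicate 3 was the highest proximal library. The tissue and stress isoforms COX4I2, COX6A2, COX7A1, COX7B2, COX8C and COX6B2 had too few counts to be tested, as had C15orf48, a paralogue of NDUFA4. NDUFA4L2, another paralogue of NDUFA4 known as a target of hypoxia-inducible factors and not a member by its name, fell from 8.19 ± 0.367 CPM in monocultured to 3.79 ± 0.521 in proximal and 5.06 ± 1.18 in distal macrophages (-1.11 ± 0.19, adjusted p = 0.000323, and -0.69 ± 0.19, adjusted p = 0.00844).

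In complex V, the ATP synthase, 12 of 15 nuclear members fell in proximal and 14 of 15 in distal macrophages, with medians of -0.60 and -0.62. ATP5F1B, the catalytic beta subunit and the nuclear member with the highest level per length (1066 ± 28.2 TPM in monocultured macrophages), was at 674, 650.4 and 624 CPM in monocultured, 436, 473 and 477 in proximal and 473, 454 and 473 in distal libraries. The cocultured libraries lay close together and well below the monocultured ones. ATP5F1B (chromosome 12, 56638175 to 56645984, minus strand) fell by 0.49 ± 0.07 (adjusted p = 8.23e-05) and by 0.48 ± 0.07 (adjusted p = 0.000125) on the log2 scale. ATP5F1A, the alpha subunit of the same head, was at 471, 472 and 459 CPM in monocultured, 282, 286 and 278 in proximal and 263, 289 and 273 in distal libraries. The cocultured and monocultured libraries did not overlap, and the falls were 0.73 ± 0.07 (adjusted p = 1.52e-06) and 0.77 ± 0.07 (adjusted p = 1.12e-06). ATP5PB, part of the stalk that holds the head still, fell by 0.63 ± 0.08 and by 0.62 ± 0.08 (adjusted p = 1.06e-05 and 1.49e-05).

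The c subunit of the rotor ring has the same mature protein from 3 genes, ATP5MC1, ATP5MC2 and ATP5MC3, and all 3 fell in both sorts of cocultured macrophages. ATP5MC3 was at 198, 173 and 182 CPM in monocultured, 78.9, 75.9 and 121 in proximal and 109, 96.8 and 118 in distal libraries, with no overlap between cocultured and monocultured ones. It fell by 1.00 ± 0.15 (adjusted p = 9.02e-05) and by 0.77 ± 0.15 (adjusted p = 0.00087) on the log2 scale. ATP5MC1 fell by 0.77 ± 0.11 (adjusted p = 7.47e-05) and by 0.78 ± 0.11 (adjusted p = 8.04e-05). ATP5MC2 fell by 0.50 ± 0.09 in proximal macrophages (adjusted p = 0.000489). Its fall of 0.27 ± 0.09 in distal ones (adjusted p = 0.0305) was lost without distal replicate 1, distal replicate 3 or any 1 monocultured replicate (adjusted p from 0.056 to 0.164). Per length, the 3 genes stood at 174 ± 10.7, 73.2 ± 9.12 and 113 ± 1.47 TPM in monocultured macrophages in the order MC3, MC1, MC2, and at 84.2 ± 22.6, 41.5 ± 2.12 and 77.2 ± 4.46 TPM in proximal ones. ATP5F1D, the delta subunit of the central stalk, was the nuclear complex V member that was called in neither comparison (-0.34 ± 0.14, adjusted p = 0.0644, and -0.28 ± 0.14, adjusted p = 0.134).

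The 13 mitochondrially encoded members were far above the nuclear ones in level, from 2424 ± 805 TPM for MT-ATP8 to 20814 ± 1865 TPM for MT-CO1 in monocultured macrophages. They took 3.18% ± 0.235 of all counted pairs there, 3.38% ± 0.460 in proximal and 3.66% ± 0.444 in distal libraries. These shares are without TMM scaling, and they put proximal below distal libraries, the reverse of the summed CPM given above. The median log2 fold change of the mitochondrial members was 0.16 in proximal and 0.07 in distal macrophages, and both values moved with single libraries. The proximal median was 0.09 without proximal replicate 1 or 2, 0.10 without monocultured replicate 1, 0.25 without proximal replicate 3 and 0.08 with the length trend removed. The distal median was -0.03 without distal replicate 2, 0.03 without monocultured replicate 1, from 0.12 to 0.15 without distal replicate 1, distal replicate 3 or monocultured replicate 3, 0.14 with upper-quartile factors and -0.13 with the length trend removed. Against monocultured macrophages, 3 of 13 rose in proximal ones (MT-ND1, MT-CYB and MT-ATP8) and 0 fell, and 3 rose in distal ones (MT-ND1, MT-ND2 and MT-CYB) and 1 fell (MT-ND6). The 23.1% that rose in each sort stand beside 22.4% and 20.7% of all genes, so the share was near the background. These genes are transcribed as long precursors, nearly all from the heavy strand, and some have close copies in the nuclear genome, from which pairs that map to several places were left out.

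MT-ND1, a membrane core subunit of complex I, was at 2542, 2841 and 2816 CPM in monocultured, 3674, 3411 and 3036 in proximal and 3303, 4184 and 3606 in distal libraries. Every cocultured library was above every monocultured one. MT-ND1 rose by 0.44 ± 0.10 on the log2 scale in distal macrophages (adjusted p = 0.00238). The rise of 0.30 ± 0.10 in proximal ones (adjusted p = 0.0196) was lost without proximal replicate 1 (adjusted p = 0.0992) or monocultured replicate 1 (adjusted p = 0.0824). MT-CYB, the cytochrome b of complex III, was at 1435, 1697 and 1519 CPM in monocultured, 2167, 2083 and 1711 in proximal and 1722, 2305 and 1881 in distal libraries. The lowest cocultured libraries were just above the highest monocultured one. Its rise of 0.36 ± 0.12 in proximal macrophages (adjusted p = 0.0207) was lost without proximal replicate 1, proximal replicate 2, monocultured replicate 1 or monocultured replicate 3 (adjusted p from 0.0599 to 0.0938). That of 0.35 ± 0.12 in distal ones (adjusted p = 0.0266) was lost without distal replicate 2, monocultured replicate 1 or monocultured replicate 3 (0.0803 to 0.11). MT-ND2 rose by 0.26 ± 0.09 in distal macrophages (adjusted p = 0.0242), a call lost without distal replicate 2, monocultured replicate 1 or monocultured replicate 2 (0.0554 to 0.103). The 3 subunits of the catalytic core of complex IV, MT-CO1, MT-CO2 and MT-CO3, had log2 fold changes of 0.16 ± 0.11, 0.15 ± 0.13 and 0.00 ± 0.08 in proximal macrophages and -0.05 ± 0.11, 0.07 ± 0.13 and 0.21 ± 0.08 in distal ones. None of these 6 passed the test, the lowest adjusted p being 0.0522 for MT-CO3 in distal macrophages. MT-ND3, MT-ND4, MT-ND4L, MT-ND5 and MT-ATP6 were called in neither comparison.

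**Figure D4:**
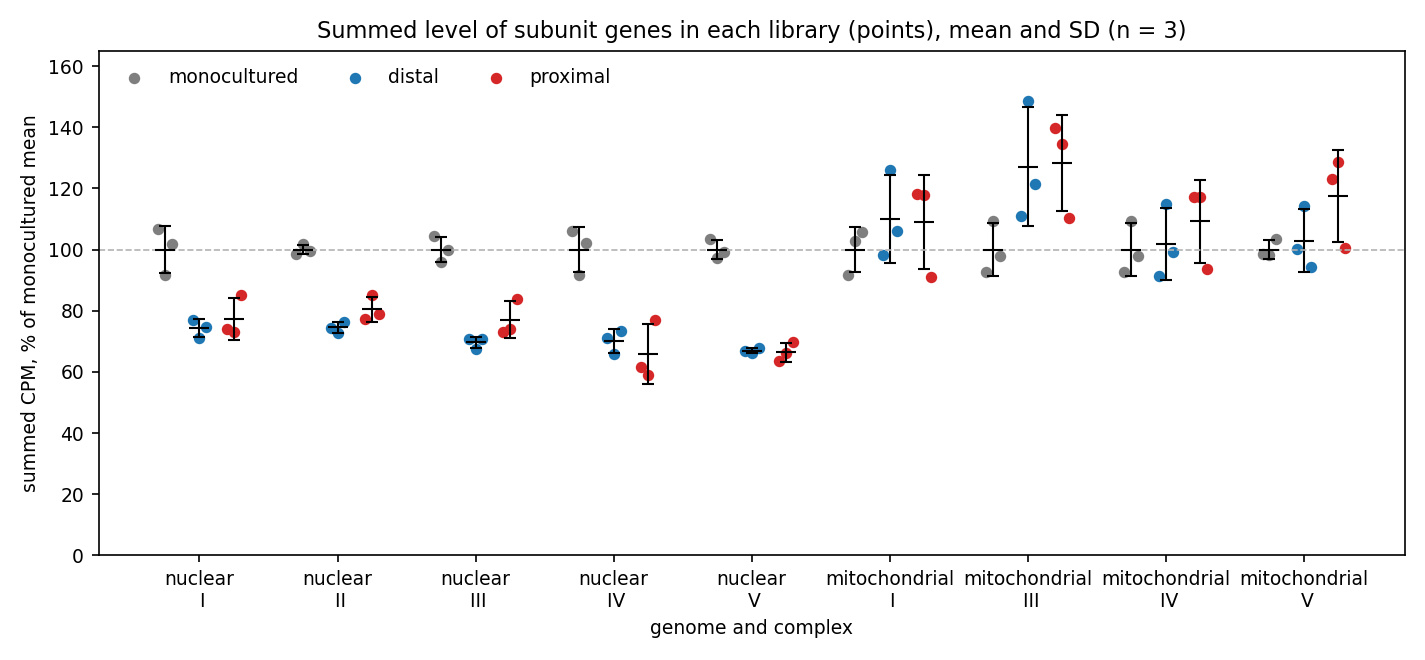
Summed CPM of the subunit genes of each complex in each library (points), as a percent of the monocultured mean, with bars for the mean and SD of 3 libraries (grey, monocultured; blue, distal; red, proximal). The nuclear sums of all 6 cocultured libraries lie below the 3 monocultured ones in each of the 5 complexes, whereas the mitochondrial sums overlap except in complex III, which is MT-CYB alone.

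Between proximal and distal macrophages, the number of members called depended on single libraries, as did the number over all genes. Of the 84 tested members, 6 were higher in proximal macrophages (7.14%, beside 8.4% of all genes) and 1 was lower (1.19%, beside 7.93%). Without proximal replicate 3, 12 were lower (14.3%, beside 9.79% of all genes). Without distal replicate 2, 1 was higher (beside 8.14%), and 2 were higher without proximal replicate 2, distal replicate 1 or distal replicate 3. Over all genes, 878 of 15947, 816 of 15854 and 757 of 15789 were higher in the latter settings, against 1296 of 15427 with every library. The median log2 fold change of proximal against distal was -0.02 over the nuclear and 0.03 over the mitochondrial members, beside 0.01 over all genes, and the latter set had 0.18 without proximal replicate 3 and 0.18 without distal replicate 2. UQCRC1, a core protein of complex III whose promoter is printed above (gene on chromosome 3, 48599002 to 48610976, minus strand), was at 541, 576 and 589 CPM in proximal, 442, 434 and 452 in distal and 699, 628 and 593 in monocultured libraries. The proximal values lay between the other groups and overlapped neither. The difference of proximal from distal was 0.36 ± 0.08 on the log2 scale (adjusted p = 0.00686) and remained called in 22 of 22 alternatives. Against monocultured macrophages the distal value fell by 0.53 ± 0.08 (adjusted p = 9.92e-05), and the proximal one was not called (-0.17 ± 0.08, adjusted p = 0.096).

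In complex I, NDUFS8, which carries iron-sulphur clusters, was at 108, 118 and 112 CPM in proximal, 88.1, 79.4 and 94.5 in distal and 155, 140.1 and 130.5 in monocultured libraries. The 3 groups did not overlap. Proximal macrophages were 0.37 ± 0.10 above distal ones on the log2 scale (adjusted p = 0.018), a call lost without proximal replicate 2, distal replicate 1 or distal replicate 2 (0.0548 to 0.0633). NDUFV2 (-0.89 ± 0.21, adjusted p = 0.0102) and UQCR11 (0.51 ± 0.13, adjusted p = 0.0177; 0.0537 without either of distal replicates 2 and 3) were also called, and both are among the genes that could not be counted fully.

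The mitochondrial members called between proximal and distal macrophages were MT-ATP8 and MT-ND6. MT-ATP8, a small subunit of complex V, was at 350.4, 384 and 122 CPM in proximal, 120.2, 99.4 and 115 in distal and 137, 91.5 and 180.3 in monocultured libraries. Proximal replicates 1 and 2 were high, and replicate 3 lay within the monocultured range and just above the distal libraries. The log2 fold change was 1.36 ± 0.39 against distal (adjusted p = 0.0435) and 1.06 ± 0.39 against monocultured macrophages (adjusted p = 0.0481). The first was lost without proximal replicate 1 or 2, any 1 distal replicate or monocultured replicate 1 (0.0921 to 0.186). The second was lost without proximal replicate 1 or 2, any 1 distal replicate or monocultured replicate 1 or 2 (0.0648 to 0.173). Its exonic length is 207 bases, shorter than the fragments selected for the libraries, and 78.9% of its coding bases are free of MT-ATP6. MT-ND6, the complex I subunit encoded on the light strand, was at 663, 809 and 537 CPM in proximal, 492, 509.7 and 500.1 in distal and 592, 589 and 754 in monocultured libraries. The distal libraries were close together below all others. MT-ND6 was 0.42 ± 0.13 higher in proximal than in distal macrophages (adjusted p = 0.0425) and fell by 0.37 ± 0.13 in distal against monocultured ones (adjusted p = 0.0366). The first call was lost without proximal replicate 1 or 2, any 1 distal replicate or monocultured replicate 2 (0.055 to 0.183). The second was lost without any 1 distal replicate or monocultured replicate 3 (0.0647 to 0.191). As strand was not used in counting, pairs from the opposite strand of MT-ND6 cannot be told apart from its own.

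**Figure D5:**
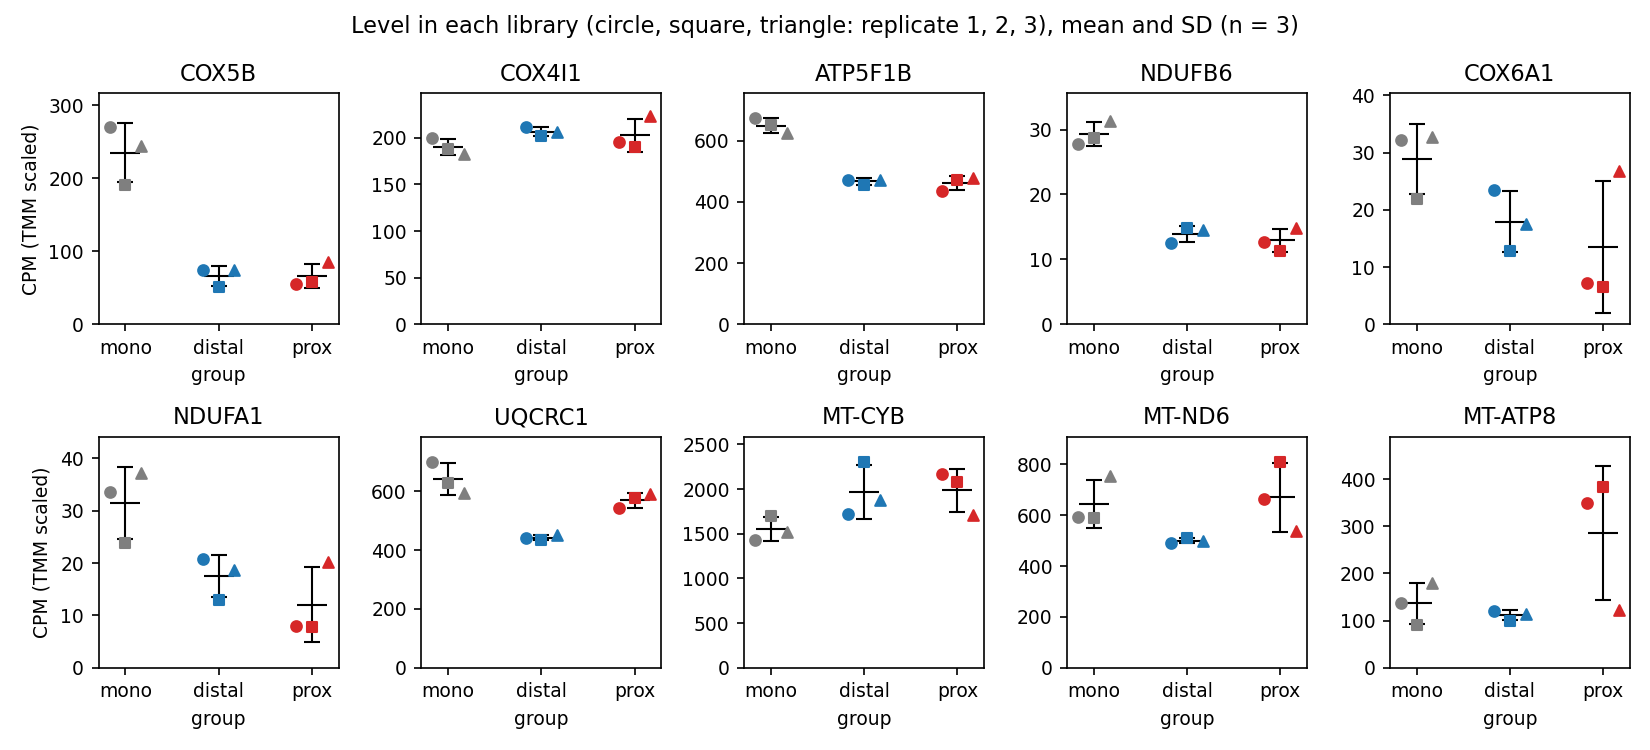
Level of 10 subunit genes in each library (points; circle, square and triangle are replicates 1, 2 and 3), as CPM on linear axes from 0, with the mean and SD of 3 libraries. COX5B, ATP5F1B and NDUFB6 are low in all 6 cocultured libraries, COX4I1 was not called in any comparison, UQCRC1 is higher in proximal than in distal libraries, and in COX6A1, NDUFA1 and MT-ATP8 proximal replicate 3 stands away from proximal replicates 1 and 2.

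The calls were also counted with the libraries that stood apart adjusted or left out. With the GC trend removed from every library, 47 members fell in proximal (beside 26.9% of all genes) and 45 in distal macrophages (beside 26.8%) against monocultured ones. In that setting 7 were higher (8.33%, beside 18.1% of all genes) and 2 lower (2.38%, beside 11.5%) in proximal than in distal macrophages. Without both proximal replicate 3 and distal replicate 2, a setting chosen after the data were seen, 13 members were higher (5 nuclear, 8 mitochondrial) and 18 lower (17 nuclear, 1 mitochondrial) in proximal than in distal macrophages. These are 15.5% and 21.4% of the members, beside 17.3% and 14.3% of all genes. The share called higher was near the background only with both genomes pooled. It was made up of 8 of 13 mitochondrial and 5 of 71 nuclear members. The medians were then -0.10 over nuclear and 0.28 over mitochondrial members. Against monocultured macrophages, 57 members fell in proximal (beside 27% of all genes) and 56 in distal ones (beside 24.4%) in that setting.

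Other genes of the pathway were followed as lists, whose counts stand beside 22.4% of all genes called higher and 23.1% lower in proximal, and 20.7% and 21.7% in distal macrophages. Of 7 tested subunits and electron carriers that are not members, 3 fell and 1 rose in proximal and 4 fell and 0 rose in distal macrophages, with medians of -0.28 and -0.33 on the log2 scale. Among them CYCS, the cytochrome c that carries electrons to complex IV, was 176 ± 14.3 CPM in monocultured, 118 ± 10.5 in proximal and 113 ± 2.18 in distal libraries, a fall of 0.57 ± 0.09 (adjusted p = 0.000154) and of 0.63 ± 0.09 (adjusted p = 7.06e-05) on the log2 scale. Among assembly factors for complex I, 2 of 19 rose and 1 fell in proximal and 2 rose and 3 fell in distal macrophages, with a proximal median of -0.05. Among those for complexes II and III, 0 of 10 rose and 1 fell, and 1 rose and 2 fell, with medians of -0.20 and -0.09. Among those for complex IV, 0 of 22 rose and 6 fell, and 1 rose and 4 fell, with medians of 0.01 and -0.04; the 27.3% and 18.2% that fell are near the shares of all genes. COX18, which inserts part of MT-CO2 into the membrane, fell by 0.76 ± 0.11 (adjusted p = 8.94e-05) and by 0.69 ± 0.11 (adjusted p = 0.000221). Among those for complex V, TMEM70 fell by 0.80 ± 0.11 (adjusted p = 2.60e-05) and by 0.83 ± 0.11 (adjusted p = 2.16e-05), and of the 4 tested 0 rose and 1 fell in proximal and 1 rose and 2 fell in distal macrophages (medians of -0.12 and -0.54). Of 29 genes of mitochondrial DNA transcription, replication and RNA handling, 5 rose and 1 fell in proximal and 1 rose and 1 fell in distal macrophages (medians of 0.06 and 0.01), and the 17.2% that rose in proximal ones are below the share of all genes. MTERF3, which binds mitochondrial DNA, was 14.3 ± 0.374 CPM in monocultured and 21.0 ± 1.82 in proximal libraries (0.56 ± 0.12, adjusted p = 0.00223).

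Among 9 tested regulators of respiratory gene transcription, 3 rose and 1 fell in each comparison with monocultured macrophages (medians of 0.20 and 0.04). PPARGC1B, a coactivator of mitochondrial biogenesis, fell: it was at 121, 123 and 118 CPM in monocultured, 49.1, 43.0 and 45.2 in proximal and 56.9, 49.9 and 58.1 in distal libraries. All 6 cocultured values were below all 3 monocultured ones. The log2 fold changes were -1.40 ± 0.09 (adjusted p = 2.31e-08) and -1.13 ± 0.09 (adjusted p = 2.34e-07). HIF1A, the alpha subunit of hypoxia-inducible factor 1, rose by 1.43 ± 0.13 (adjusted p = 7.40e-07) and by 0.87 ± 0.13 (adjusted p = 0.000102) and was 0.56 ± 0.13 higher in proximal than in distal macrophages (adjusted p = 0.0094). NRF1 itself was not called (0.22 ± 0.11, adjusted p = 0.132, and -0.04 ± 0.11, adjusted p = 0.791).

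Of 21 enzymes of the tricarboxylic acid cycle and its branches, 8 fell and 3 rose in proximal and 10 fell and 2 rose in distal macrophages (medians of -0.15 and -0.29). IDH2, a mitochondrial isocitrate dehydrogenase, fell by 1.27 ± 0.09 (adjusted p = 6.09e-08) and by 0.93 ± 0.09 (adjusted p = 1.72e-06), and MDH1, the cytosolic malate dehydrogenase, by 1.23 ± 0.09 (adjusted p = 7.13e-08) and by 0.97 ± 0.09 (adjusted p = 1.03e-06). Of 10 carriers and uncoupling proteins, 6 fell and 1 rose, and 6 fell and 0 rose (medians of -0.30 and -0.29). UCP2 went from 149 ± 15.2 CPM in monocultured to 58.5 ± 3.73 in proximal and 70.0 ± 4.04 in distal macrophages (-1.35 ± 0.10, adjusted p = 6.20e-08, and -1.09 ± 0.10, adjusted p = 6.51e-07). A further list of 12 genes held PDK1, PDK2, PDK3, PDK4, LONP1, LDHA, BNIP3, BNIP3L, EGLN3, ANKRD37, ADM and CA9. Among its 8 tested genes, 6 rose and 1 fell in each comparison (medians of 1.16 and 0.76), and metabolism itself was not measured. BNIP3, a receptor for mitophagy, rose from 27.8 ± 2.79 CPM to 164 ± 7.86 in proximal and 109 ± 0.659 in distal macrophages (2.56 ± 0.10, adjusted p = 6.94e-11, and 1.97 ± 0.09, adjusted p = 9.44e-10). PDK1, which blocks pyruvate dehydrogenase, rose by 1.25 ± 0.12 (adjusted p = 8.60e-07) and by 0.77 ± 0.12 (adjusted p = 0.00012). BNIP3 was also higher in proximal than in distal macrophages, by 0.59 ± 0.09 (adjusted p = 0.000471). In proximal against distal macrophages, where 8.4% of all genes were higher and 7.93% lower, 0 of the 7 outside subunits were called. Of the assembly factors 1 of 19 for complex I, 1 of 10 for complexes II and III and 1 of 22 for complex IV were lower and 1 of 4 for complex V was higher. Of the 29 genes of mitochondrial DNA 1 was higher and 1 lower, and of the 9 regulators 1 was higher. Of the enzymes 1 of 21 was lower, of the carriers 2 of 10 were higher and 1 lower, and of the list with PDK1 and BNIP3, 3 of 8 were higher.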

How the data were processed

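Read pairs per gene name were deposited by the authors as raw counts, with 1 table per group. featureCounts 1.6.3 summed exons by gene name on GENCODE 36, per the file headers, without strand and leaving out pairs with several hits or genes. The submitters' processing notes also name Trim Galore 0.6.5, STAR 2.7.6a, R 4.1.3, DESeq2 1.34.0 and GRCh38.p13. From these counts, all 9 libraries were fitted together with edgeR 4.0.16 in R 4.3.3 (filterByExpr with a minimum count of 10 and a minimum total of 15, TMM factors, robust quasi-likelihood fit; residual df of 6, BCV of 11.6%), and p-values were adjusted over all 15427 genes tested. SE is the size of the log2 fold change divided by the square root of F. Alternatives were DESeq2 1.42.0 size factors and Wald test, upper-quartile factors, scaling without mitochondrial and the 20 most abundant genes, other filters, limma 3.58.1 voom, only the groups compared, a replicate block, GC and length trends removed, and each library left out. GC content came from GENCODE 29 transcripts and was known for 96.5% of genes tested. Promoter windows are RefSeq's (GRCh38.p14). Other steps used numpy 2.4.6, matplotlib 3.10.9 and pandas 2.3.3 in Python 3.11.15.

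The members and lists were chosen with earlier results of these data known. The naming rule covers the mitochondrial and SDH genes, up to 3 called nuclear members with the largest rise and fall per complex and comparison, tissue isoforms, the extremes of level per complex, and up to 3 genes with the smallest p per list and comparison, of which the text gives some. ATP5F1A, ATP5PB, ATP5F1D, ATP5MC2, UQCRC2, UQCRFS1, NDUFV1, NDUFB4 and COX7C fall outside it, and were chosen for their role or pattern after their values were seen. The values of 1 nuclear member, which is part of all counts, are not reported here.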

Additional observations from a re-analysis of the deposited data

Results flagged for a closer look

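For the members named here, the change against monocultured macrophages differed between proximal and distal ones by the test of that difference, the log2 fold change of proximal against distal. It was 0.36 for UQCRC1 and 0.37 for NDUFS8, and the coculture values of both genes were below the monocultured mean in both sorts. It was 0.51 for UQCR11 and -0.89 for NDUFV2, both of them genes whose exons are largely shared with other genes. It was 1.36 for MT-ATP8, where proximal replicate 3 was far below the other proximal libraries, and 0.42 for MT-ND6.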

How the results depend on the processing

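The members lower against monocultured macrophages numbered 32 to 55 in proximal and 37 to 56 in distal ones when each library was left out in turn, and the members higher 1 to 9 and 2 to 5. Of the 15789 to 15958 genes tested in these settings, 3061 to 3981 and 2776 to 3786 were lower. Those higher numbered 2907 to 3836 and 2686 to 3712. Proximal against distal, leaving out each library gave 1 to 8 members higher and 1 to 12 lower, the 12 without proximal replicate 3. Over all genes these numbers were 757 to 1897 and 768 to 1558. With upper-quartile factors, 2 members were higher and 3 lower in proximal than in distal macrophages, beside 816 and 1572 of 15427 genes. The median of all genes then moved from 0.01 to -0.07 on the log2 scale, and 34.2% of all calls were higher in place of 51.4%. Without a filter, with a replicate block or with the GC trend removed, 2 members were lower in proximal than in distal macrophages. Over all genes, 1248 of 33766, 1249 of 15427 and 1773 of 15427 were lower. Among genes within the overlap limits given above, 0 members were lower, beside 1197 of 14353 genes. With the length trend removed, 2 members were higher in proximal and 2 in distal than in monocultured macrophages, beside 3565 and 3146 of 15427 genes. Without both proximal replicate 3 and distal replicate 2, 13 members were higher and 18 lower in proximal than in distal macrophages (beside 17.3% and 14.3% of all genes). In that setting 9 were higher in proximal than in monocultured macrophages, beside 4270 of 15793 genes. UQCR10 then turned from 0.06 to -0.48 in proximal against distal macrophages (adjusted p = 0.0205). Deviations from the group means had correlations of -0.16 to 0.30 between same-numbered libraries of different groups and of -0.42 to 0.30 between the others. With 3 libraries per group, these cannot decide whether equal numbers were paired. With the block, 51 members were lower in proximal and 52 in distal than in monocultured macrophages, beside 3671 and 3461 of 15427 genes. The median of the nuclear members stayed between -0.51 and -0.42 in proximal and between -0.50 and -0.40 in distal macrophages against monocultured ones in every alternative. Among single named genes and all alternatives, 5998 values kept their side of the threshold, 314 lost a call, 182 gained one and 1 reversed. A change of sign counted as reversed only where the gene was called with or without the alternative. The 5998 can therefore include uncalled values whose sign changed. Levels near 1 CPM, as for NDUFV2, rest on few counts.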
